A study of Saccharomyces cerevisiae with 15 samples.

Results

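The 5 genes ASN1, ASN2, ASP1, AAT1 and AAT2 encode the enzymes that make and break down asparagine and aspartate in budding yeast. They were taken by name from the platform annotation, using probe sets that name 1 gene, and each of the 5 had exactly 1 such probe set among the 5656 genes measured that way. All 5 passed the filter on low signal, as did 5388 genes in all. Transcripts were measured on Affymetrix YG_S98 arrays in the prototrophic haploid MATa strain CEN.PK113-7D of Saccharomyces cerevisiae, with no deletion or transgene. Cells grew in aerobic chemostats, continuous cultures held at a fixed growth rate, in which glucose (7.5 g/l in the feed) limited growth and all nitrogen came from 1 L-amino acid. The 5 groups were asparagine at 5.0 g/l, proline at 8.8 g/l, leucine at 10.0 g/l, phenylalanine at 5.0 g/l and methionine at 11.3 g/l, with 3 arrays each and 15 in all. All cultures had added potassium sulfate (6.6 g/l), were kept at pH 5.0 and 30 °C with a dilution of 0.10 volumes per hour, and were sampled after 10 to 14 volume changes. The study asked how transcription differs between nitrogen sources that yeast prefers and those it does not.

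Asparagine synthetase transfers the amide nitrogen of glutamine to aspartate, giving asparagine and glutamate, and yeast has a pair of such enzymes, Asn1 and Asn2. Asparaginase runs the other way: the cytosolic Asp1 splits asparagine into aspartate and ammonium. Aspartate aminotransferase passes an amino group between aspartate and glutamate, with oxaloacetate as the keto acid partner, and Aat1 is its mitochondrial and Aat2 its cytosolic form. A cell that feeds on asparagine therefore receives both an end product of this pathway and a nitrogen donor, while on the other 4 sources it has to build aspartate and asparagine itself.

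The deposited signals are linear and scaled so that arrays have nearly equal trimmed means (150.0 to 151.7 after removal of the highest and lowest 2%), so a level here is a share of an array's total. Less of a transcript per cell and a larger total around it cannot be told apart. The log2 signals of 15 array pairs within a source correlated at 0.959 to 0.987 across probe sets, against 0.922 to 0.976 for 90 pairs between sources, and no columns were identical. Transcripts specific to MATa cells (6 genes) summed to a signal of 2091 to 7315 on an array, against 125 to 228 for 4 genes of MATalpha cells, of which SAG1 (51.0 to 151) carried the most and MF(ALPHA)2 (3.70 to 15.1) the least. The 3'/5' signal ratio of actin, a control of RNA integrity and labelling, averaged 2.77 ± 0.797 (SD, n = 3) on the asparagine arrays and 2.81 ± 0.697 on those of phenylalanine, above proline (1.90 ± 0.427), leucine (2.11 ± 0.285) and methionine (1.76 ± 0.103). The signal of the hybridisation controls was likewise highest with phenylalanine (450.2 ± 319) and asparagine (351 ± 58.2). Array phenylalanine 1 was a repeat run after scanner servicing, per its deposited array information. The parts these technical measures play in the results were not tested beyond the covariate fits given below.

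By the moderated F test of limma, each of the 5 genes varied with the source, as did 52.2% of the 7459 probe sets tested. The adjusted p was 4.2e-05 for ASN1, 5.2e-05 for ASN2, 8.1e-05 for AAT1, 0.00013 for AAT2 and 0.047 for ASP1. The source means of ASN1 spanned 3.04-fold, those of AAT2 2.24-fold, ASN2 1.97-fold, AAT1 1.86-fold and ASP1 1.63-fold. Over all tested probe sets the median span was 1.66-fold, and 13.7% spanned at least as much as ASN1, against 53.0% for ASP1. Differences between sources held 88.2% of the variance of ASN1 over the 15 arrays, 92.1% for ASN2, 92.5% for AAT1 and 86.8% for AAT2, against 55.7% for ASP1 and a median of 61.7% over all tested probe sets. The ASP1 call was lost under 19 of 28 alternatives, among them the replicate block (adjusted p = 0.058) and quantile normalization (0.068). The other 4 kept theirs under all 28.

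Every pair of sources was then compared, and 28 of the 50 tests on the 5 genes passed an adjusted p of 0.05, against 21.5% of all tests on all probe sets. Most of the 5 genes were called for methionine against asparagine (4 higher and 1 lower, where 38.6% of all probe sets were called), leucine against asparagine (4 higher, 20.9%) and phenylalanine against leucine (4 lower, 12.8%). Leucine was higher than proline for 3 genes (19.3% of all called). Methionine against proline gave 2 higher and 1 lower (22.6%). Fewer were called for proline against asparagine (1 higher and 1 lower, 13.3%), phenylalanine against asparagine (1 and 1, 25.6%), phenylalanine against proline (1 and 1, 20.7%), methionine against leucine (2 lower, 18.8%) and methionine against phenylalanine (1 higher, 22.3%). The median log2 difference of the 5 genes was 0.64 with leucine and 0.62 with methionine against asparagine, beside -0.03 and -0.09 over all tested probe sets. With proline it was 0.18 and with phenylalanine 0.20, beside -0.08 and -0.16. The 4 comparisons with asparagine share its 3 arrays. Without the 5 arrays of highest ribosomal RNA control signal, which leaves 1 proline array, fewer pairs were called. The calls fell in number both for the 5 genes and over all probe sets. Losses named singly for each gene below leave this alternative out, while counts and ranges over all 29 alternatives include it.

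**Figure D1:**
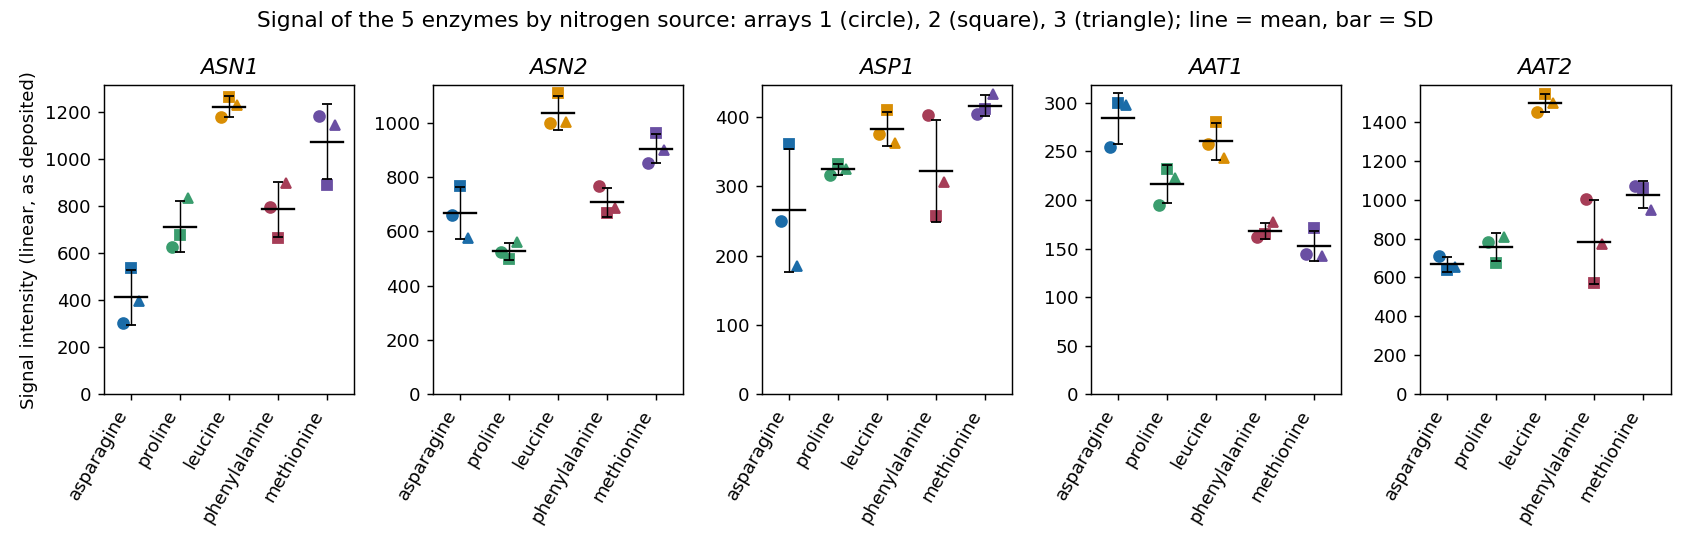
Signal intensity (linear, as deposited) of each gene on each of the 15 arrays, grouped by nitrogen source. Symbols stand for array numbers, the horizontal line is the mean and the bar the SD of 3 arrays. Leucine gave the highest mean for ASN1 (1222), ASN2 (1037) and AAT2 (1494.5), methionine for ASP1 (417) and asparagine for AAT1 (284).

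ASN1 (YPR145W), an asparagine synthetase, was lowest when the medium supplied asparagine and highest with leucine. Its signal was 305, 537 and 398 on the asparagine arrays (413 ± 116, SD, n = 3) and 625, 678 and 833 with proline (712 ± 108). Phenylalanine gave 795, 665 and 899 (786 ± 117), methionine 1181, 891 and 1146 (1073 ± 158) and leucine 1176, 1262 and 1228 (1222 ± 43.3). All 3 asparagine arrays lay below every one of the other 12 arrays, so that group overlapped with none.

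Against asparagine, ASN1 rose with each of the other 4 sources by limma. The fold was 3.04 with leucine (log2 difference 1.60 ± 0.18, SE, adjusted p = 1.1e-05), 2.64 with methionine (1.40 ± 0.18, 3.4e-05), 1.94 with phenylalanine (0.96 ± 0.18, 0.0016) and 1.76 with proline (0.81 ± 0.18, 0.011). In the order of the means, leucine and methionine did not differ by the test (log2 difference, methionine minus leucine, -0.20, 95% interval -0.59 to 0.19), nor did methionine and phenylalanine (0.45, 0.06 to 0.84, adjusted p = 0.094) or phenylalanine and proline (0.14, -0.25 to 0.54). Leucine stood above proline (1.73-fold, adjusted p = 0.0063) and above phenylalanine (1.57-fold, 0.032), and methionine above proline (1.51-fold, 0.030). The rises with leucine, methionine and phenylalanine held under all 29 alternatives. The rise with proline was lost without asparagine 1, which had the lowest ASN1 signal and the highest actin ratio of the 15 arrays (log2 difference 0.61, adjusted p = 0.051), and in a fit with the actin ratio added (0.66 ± 0.21, adjusted p = 0.094). Methionine against proline was lost without proline 1, proline 2, methionine 1 or methionine 3, and phenylalanine against leucine without any 1 leucine array, phenylalanine 1 or phenylalanine 2. Over all 29 alternatives the adjusted p reached 0.12 for the former and 0.21 for the latter.

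ASN2 (YGR124W), the second asparagine synthetase, was lowest with proline rather than asparagine. The proline arrays read 523, 498 and 560 (527 ± 31.5), the asparagine arrays 662, 766 and 576 (668 ± 95.4) and the phenylalanine arrays 768, 668 and 686 (707 ± 53.2). Methionine gave 854, 962 and 901 (906 ± 54.6) and leucine 998, 1109 and 1004 (1037 ± 62.5). The methionine and leucine arrays did not overlap with any array of the other 3 sources, while asparagine and phenylalanine overlapped.

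Relative to proline, ASN2 rose 1.97-fold with leucine (log2 difference 0.98 ± 0.12, SE, adjusted p = 1.5e-05), 1.72-fold with methionine (0.78 ± 0.12, 0.00015) and 1.34-fold with phenylalanine (0.42 ± 0.12, 0.018). Asparagine and proline did not pass (proline minus asparagine -0.33 ± 0.12, adjusted p = 0.071), although their arrays did not overlap and quantile normalization (-0.40, 0.024) and array weights (-0.31, 0.030) called this difference. Against asparagine, ASN2 rose 1.56-fold with leucine (adjusted p = 0.00077) and 1.36-fold with methionine (0.0069), and phenylalanine gave no call (log2 difference 0.09, 95% interval -0.16 to 0.34) except with median centring (0.40, adjusted p = 0.049). Leucine also stood above phenylalanine (1.47-fold, adjusted p = 0.0055, but 0.15 with median centring), as did methionine (1.28-fold, 0.038), and the difference of leucine and methionine did not pass (methionine minus leucine -0.20, -0.44 to 0.05). Leucine against asparagine and against proline held under all 29 alternatives, whereas methionine against phenylalanine was lost under 13, among them the leaving out of any 1 methionine array. Phenylalanine against proline was lost without proline 1, proline 2 or phenylalanine 1, and with the hybridisation control as covariate (0.38, adjusted p = 0.18). The rise with methionine over asparagine was lost with the actin ratio in the fit (0.40, adjusted p = 0.062).

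The pair of synthetase genes did not respond alike. Within each array the log2 signal of ASN1 minus that of ASN2 averaged -0.72 ± 0.34 (SD, n = 3) on asparagine, against 0.42 ± 0.16 on proline, 0.24 ± 0.05 on leucine, 0.14 ± 0.21 with phenylalanine and 0.23 ± 0.31 with methionine. Such a difference compares probe sets of different brightness and is no level, so only its change between sources is read. The asparagine arrays (-1.12 to -0.51) lay below all 12 others (-0.11 to 0.57). Source accounted for 81.1% of the variance of this difference, and an exact permutation test over all 1401400 assignments of the arrays to 5 groups of 3 gave p = 0.0048 (0.0048 adjusted over 2 such tests). It stayed between 0.0019 and 0.014 under the 21 alternatives run for it. Of these, median centring, other floors and averaging of probe sets could not move the p. The centring cancels within an array, the signals lie above the floors and each gene has 1 probe set. Array weights, the covariate fits and the leaving out of the arrays of high ribosomal RNA control signal were not run for it.

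**Figure D2:**
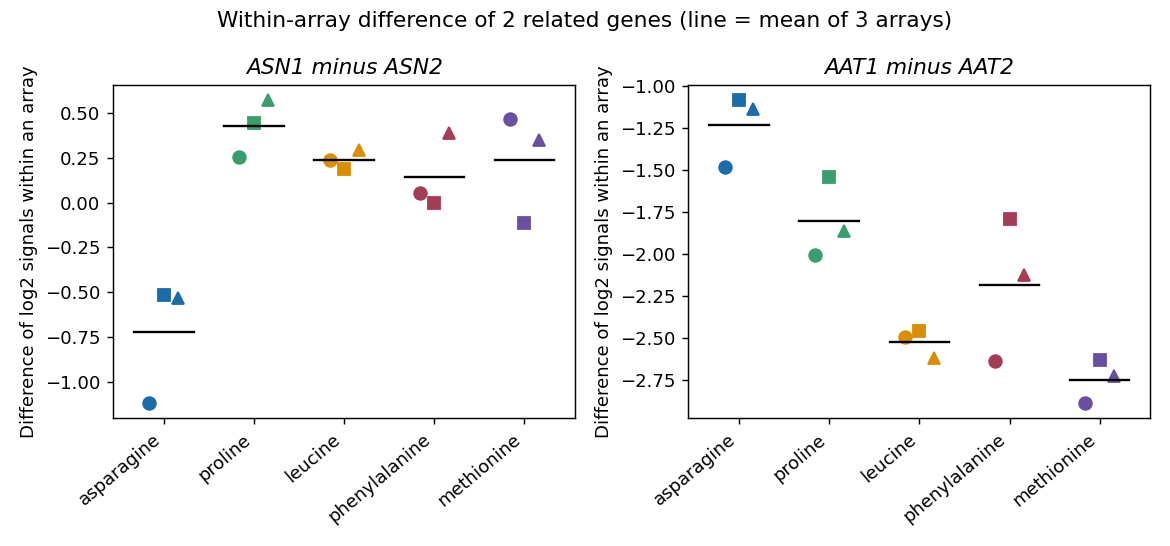
Difference of the log2 signals of 2 related genes within each array (ASN1 minus ASN2 on the left, AAT1 minus AAT2 on the right), by nitrogen source. Points are arrays and the line is the mean of 3. On the left the 3 asparagine arrays lie below the rest, and on the right they lie above the rest.

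ASP1 (YDR321W), the cytosolic asparaginase, showed the smallest span of the 5. It read 250.5, 362 and 186 with asparagine (266 ± 88.9), 403, 257 and 306 with phenylalanine (322 ± 74.0) and 316, 333 and 325 with proline (325 ± 8.45). Leucine gave 376, 411 and 363 (383 ± 24.9) and methionine 404, 412 and 434 (417 ± 15.2). The asparagine and phenylalanine arrays were the most spread, with a coefficient of variation of 33.4% and 23.0% against at most 6.50% for the other 3 sources. They overlapped with each other and with proline, and the phenylalanine arrays also overlapped with leucine. By limma ASP1 was 1.63-fold higher with methionine than with asparagine (log2 difference 0.70 ± 0.20, SE, adjusted p = 0.011) and 1.49-fold higher with leucine (0.58 ± 0.20, 0.048). The leucine call was lost under 18 of 29 alternatives, the leaving out of 11 single arrays included. Without asparagine 3, the lowest array, the methionine call was lost too (0.47, adjusted p = 0.065), as it was with the actin ratio in the fit (0.42 ± 0.22, 0.19). Without asparagine 2, the highest, ASP1 was also called higher with proline (0.59, adjusted p = 0.042) and phenylalanine (0.55, 0.038), and median centring called phenylalanine as well (0.62, 0.043). None of the 6 pairs without asparagine passed, and their differences ran from -0.27 (phenylalanine minus leucine) to 0.40 (methionine minus phenylalanine) on the log2 scale. The mean of ASP1 was lowest on asparagine, the amino acid its enzyme breaks down. The asparaginases of the cell wall, ASP3-1 to ASP3-4, share 1 probe set that names all 4 and were not analysed here.

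AAT1 (YKL106W), the mitochondrial aspartate aminotransferase, was highest with asparagine, followed by leucine, and lowest with methionine. Asparagine arrays read 254, 300.0 and 297.5 (284 ± 25.9), leucine 257, 280.2 and 243 (260.2 ± 18.6) and proline 195, 232 and 223 (217 ± 19.6). Phenylalanine gave 161.5, 165.5 and 177 (168 ± 8.27) and methionine 144, 171 and 143 (153 ± 15.9). Every phenylalanine and methionine array lay below every array of the other 3 sources, and asparagine overlapped with leucine.

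Compared with asparagine, AAT1 fell 1.86-fold with methionine (log2 difference -0.90 ± 0.12, SE, adjusted p = 5.0e-05), 1.68-fold with phenylalanine (-0.75 ± 0.12, 0.00046) and 1.31-fold with proline (-0.39 ± 0.12, 0.047). Leucine did not differ from asparagine by the test (-0.12, 95% interval -0.38 to 0.14), and neither did phenylalanine from methionine (methionine minus phenylalanine -0.14, -0.40 to 0.12). Proline and leucine did not pass after adjustment (leucine minus proline 0.27, 95% interval 0.006 to 0.53, adjusted p = 0.15). Their arrays did not overlap, however, and array weights called this difference (0.30, adjusted p = 0.027). From leucine the fall was 1.71-fold to methionine (adjusted p = 0.00060) and 1.55-fold to phenylalanine (0.0033), and from proline it was 1.42-fold to methionine (0.0072) and 1.29-fold to phenylalanine (0.047). The differences of methionine and of phenylalanine from asparagine and of methionine from leucine held under all 29 alternatives. Proline against asparagine was lost under 14 of them and phenylalanine against proline under 18, the former without any 1 proline array and the latter without any 1 phenylalanine array, among others. Phenylalanine against leucine was lost with median centring of the arrays (adjusted p = 0.077).

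AAT2 (YLR027C), the cytosolic aminotransferase, was set apart by leucine. The leucine arrays read 1449, 1539 and 1495 (1494.5 ± 45.0), above all 12 others. Methionine gave 1068, 1062 and 946 (1025 ± 68.6), proline 783, 676 and 810.2 (756 ± 71.1) and asparagine 710.3, 636 and 655 (667 ± 38.4). Phenylalanine arrays were scattered, at 1003.5, 573 and 774 (784 ± 215), and overlapped with all sources but leucine.

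With leucine AAT2 rose 2.24-fold over asparagine (log2 difference 1.16 ± 0.16, SE, adjusted p = 4.9e-05), 1.98-fold over proline (0.99 ± 0.16, 0.00027) and 1.96-fold over phenylalanine (phenylalanine minus leucine -0.97 ± 0.16, 0.00076). It was 1.46-fold higher than with methionine (adjusted p = 0.025). This call was lost without any 1 leucine array, methionine 2 or methionine 3 (adjusted p up to 0.086) and with median centring (0.13). Methionine exceeded asparagine 1.54-fold (0.62 ± 0.16, adjusted p = 0.0057), lost with the actin ratio in the fit (0.54 ± 0.20, 0.061), and missed the threshold against proline (0.44 ± 0.16, 0.053) and phenylalanine (0.42 ± 0.16, 0.063). Asparagine, proline and phenylalanine were not separated by the test, with log2 differences of 0.18 (proline minus asparagine), 0.20 (phenylalanine minus asparagine) and 0.02 (phenylalanine minus proline). The phenylalanine level moved with the array left out. Without phenylalanine 1, the highest, the difference from asparagine was -0.0012 and methionine exceeded phenylalanine (0.62, adjusted p = 0.0060). Without phenylalanine 2, the lowest of the 3, phenylalanine exceeded asparagine (0.40, adjusted p = 0.026). Leaving out either of these arrays also brought methionine past the threshold against proline (adjusted p = 0.015 and 0.010), as did the replicate block (0.046). Quantile normalization (0.032), array weights (0.0064), a filter at the 50th percentile (0.044) and averaging all probe sets of a gene (0.049) did so too. With quantile normalization methionine also passed against phenylalanine (0.44, adjusted p = 0.039).

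**Figure D3:**
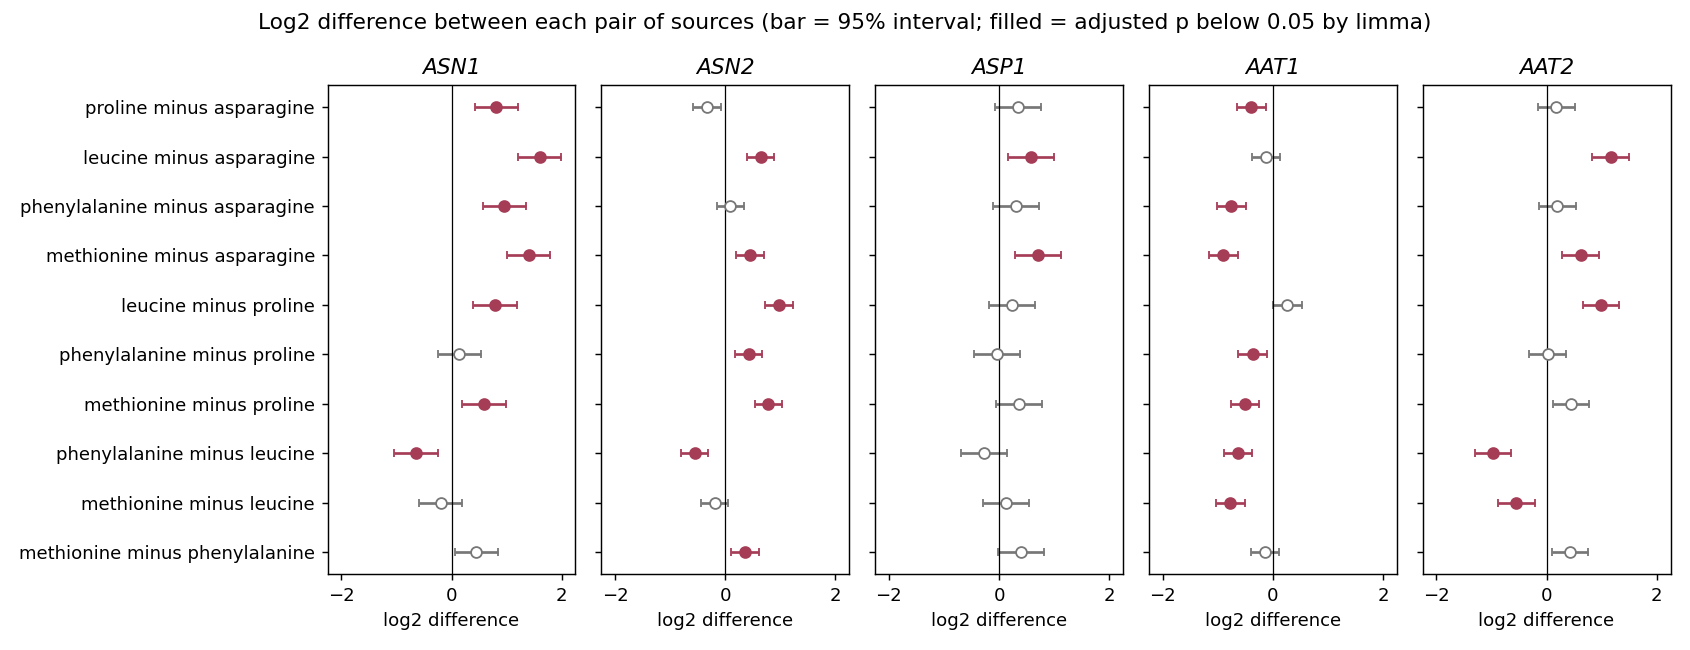
Log2 difference of each gene for the 10 pairs of sources, with its 95% interval (bars) from limma. Filled points passed an adjusted p of 0.05 over all tested probe sets. ASN1, ASN2 and AAT2 lie on the same side of 0 in their calls against asparagine, and the calls of AAT1 there lie on the other side.

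The mitochondrial and cytosolic aminotransferase genes also responded unequally. AAT1 minus AAT2 within an array averaged -1.24 ± 0.22 (SD, n = 3) on asparagine, -1.80 ± 0.24 on proline, -2.18 ± 0.42 on phenylalanine, -2.52 ± 0.08 on leucine and -2.75 ± 0.13 on methionine. The asparagine arrays (-1.48 to -1.08) lay above all 12 others (-2.89 to -1.54), so AAT1 was highest relative to AAT2 there. Source held 87.6% of the variance, and the exact permutation test gave p = 0.00026 (0.00052 adjusted over 2 tests). It lay between 4.5e-05 and 0.0014 under the same 21 alternatives, with the same limits as for the synthetases. With leucine AAT2 was at its highest while AAT1 overlapped with its asparagine arrays, and with methionine AAT1 was at its lowest.

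Across the 15 arrays, which fall into the 5 sources and share their scaling, the log2 signals of ASN1, ASN2, ASP1 and AAT2 correlated with each other at Pearson's r of 0.63 to 0.81. AAT1 correlated with them at -0.38 to 0.01. After each source's mean was taken off, r was 0.86 for ASN2 and ASP1 and between -0.14 and 0.47 for the other 9 pairs. Both ASN2 and ASP1 were highest on asparagine 2 and lowest on asparagine 3 among the asparagine arrays.

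The genes most like each enzyme over the 15 arrays were sought among 2894 genes past the F test. Nearest to ASN1 were ILV6 (regulatory subunit of acetolactate synthase, r = 0.95), HIS3 (histidine synthesis, 0.92) and YAH1 (mitochondrial ferredoxin, 0.92). ILV6 ran from 293 with asparagine and 523 with proline to 659 with phenylalanine, 847 with methionine and 1077 with leucine, the same order as ASN1. Nearest to ASN2 were LEU9 (isopropylmalate synthase, r = 0.93), YKL033W-A (0.92) and the siderophore transporter ENB1 (0.92), which shared its lowest level with proline (63.9, 399 and 207). ASP1 had weaker matches in TAE1 (a protein methyltransferase of the translation apparatus, 0.87), the rRNA methyltransferase BMT5 (0.84) and deoxyhypusine synthase DYS1 (0.84). AAT1 was nearest to the histone chaperone RTT106 (0.90), the GTPase of ribosome export NUG1 (0.90) and BIO5, a carrier of a biotin precursor (0.89), which read 73.6 with asparagine and 17.6 with methionine. AAT2 was nearest to PMU1 (0.93), the transcription factor BAS1 (0.92) and TRP3 of tryptophan synthesis (0.91), which like AAT2 were highest with leucine (365, 56.9 and 472). These r values describe the arrays and carry no test.

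The enzymes that supply oxaloacetate and exchange it or aspartate across the mitochondrial membrane changed in both directions. None of 7 such genes passed with proline against asparagine, where 4.60% of all probe sets were called higher and 8.70% lower. On leucine 3 rose and 2 fell (9.88% and 11.0% of all). Phenylalanine gave 0 higher and 1 lower (7.56% and 18.1%), and methionine 3 higher and 2 lower (14.4% and 24.2%). Their median log2 differences were -0.07, -0.00, 0.26 and 0.17. The cytosolic malate dehydrogenase MDH2 fell 3.21-fold with leucine, 2.26-fold with phenylalanine and 2.68-fold with methionine, from 1049 ± 40.9 to 327 ± 17.2, 468 ± 79.2 and 392 ± 12.5 (SD, n = 3). OAC1, a mitochondrial oxaloacetate carrier, fell 2.20-fold with leucine and rose 1.88-fold with methionine, from 655 ± 87.9 to 298 ± 43.9 and 1221 ± 64.8.

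Genes whose enzymes consume aspartate, or act on a later product of it as HOM2 does, moved one way where they were called. Of 8, 0 passed on proline, 6 rose on leucine, 5 on methionine and 4 on phenylalanine, and 0 fell in any of the 4 comparisons, with median log2 differences of 0.23, 0.72, 0.60 and 0.32 in that order. Of all probe sets 4.60%, 9.88%, 14.4% and 7.56% were called higher in these comparisons and 8.70%, 11.0%, 24.2% and 18.1% lower. HOM2, aspartate semialdehyde dehydrogenase on the way to threonine and methionine, rose 2.30-fold with leucine and 2.13-fold with methionine (from 317 ± 49.8 to 723 ± 43.8 and 671 ± 30.0). ARG1, argininosuccinate synthetase, rose 2.76-fold with leucine, 2.93-fold with phenylalanine and 2.49-fold with methionine (from 778 ± 188 to 2116 ± 231, 2339 ± 903 and 1902 ± 99.6).

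Uptake and use of asparagine was represented by 6 of 10 listed genes, since the 4 ASP3 genes had no probe set of their own. On proline 1 rose and 4 fell, and 4 rose on leucine, 3 on phenylalanine and 3 on methionine with 0 lower (median log2 differences -1.14, 0.89, 0.91 and 0.77). Over all probe sets 4.60% were higher and 8.70% lower on proline, and 9.88%, 7.56% and 14.4% were higher on the other 3 sources in that order. GAP1, the general amino acid permease, rose on each of the 4 sources, from 187 ± 34.2 with asparagine to 1999.6 ± 174, 2107 ± 42.0, 2550.2 ± 79.1 and 2790.3 ± 129 with proline, leucine, phenylalanine and methionine. AGP1, a broad amino acid permease that takes up asparagine and glutamine, fell 3.59-fold with proline (from 336 ± 50.6 to 93.3 ± 10.5) and rose 3.35-fold, 3.70-fold and 3.92-fold with leucine, phenylalanine and methionine. DIP5, the permease of glutamate and aspartate, showed the same split, 2.79-fold lower with proline (from 837 ± 145 to 299 ± 40.9) and 2.57-fold, 3.01-fold and 3.13-fold higher with the other 3. GNP1, a glutamine permease that also carries asparagine, fell 7.87-fold with proline, while its log2 differences with the other 3 sources (-0.36 to -0.26) did not pass.

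Glutamine is the amide donor of asparagine synthesis and glutamate the amino donor of aspartate. Of 5 genes of their synthesis and release, 5 rose on proline and on methionine, 4 on leucine and 3 on phenylalanine, and 0 fell. The share of all probe sets called higher was 4.60% on proline, 14.4% on methionine, 9.88% on leucine and 7.56% on phenylalanine. The median log2 differences of the 5 were 1.19, 1.16, 1.09 and 1.08 in the same order. Glutamine synthetase GLN1 rose 3.50-fold, 3.55-fold, 5.10-fold and 4.40-fold on proline, leucine, phenylalanine and methionine, from 698 ± 97.1, and GDH3, an NADP-dependent glutamate dehydrogenase, 4.93-fold, 10.9-fold, 13.2-fold and 11.4-fold, from 108 ± 11.1. The share of all calls that were higher moved with the scaling of the arrays: as deposited, 34.6% of the proline, 47.2% of the leucine, 29.5% of the phenylalanine and 37.3% of the methionine calls against asparagine were higher. Quantile normalization gave 46.7%, 51.8%, 51.1% and 48.9%, and median centring 59.6%, 57.4%, 72.6% and 60.4%, in the same order. The median of all probe sets with phenylalanine against asparagine moved with it, from -0.16 to 0.01 and 0.15, and with methionine from -0.09 to 0.02 and 0.12. The called differences of the 5 enzymes kept their sign under both. Of their 28 calls between pairs of sources, quantile normalization lost 2 and median centring 7, while 3 and 2 others were gained.

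**Figure D4:**
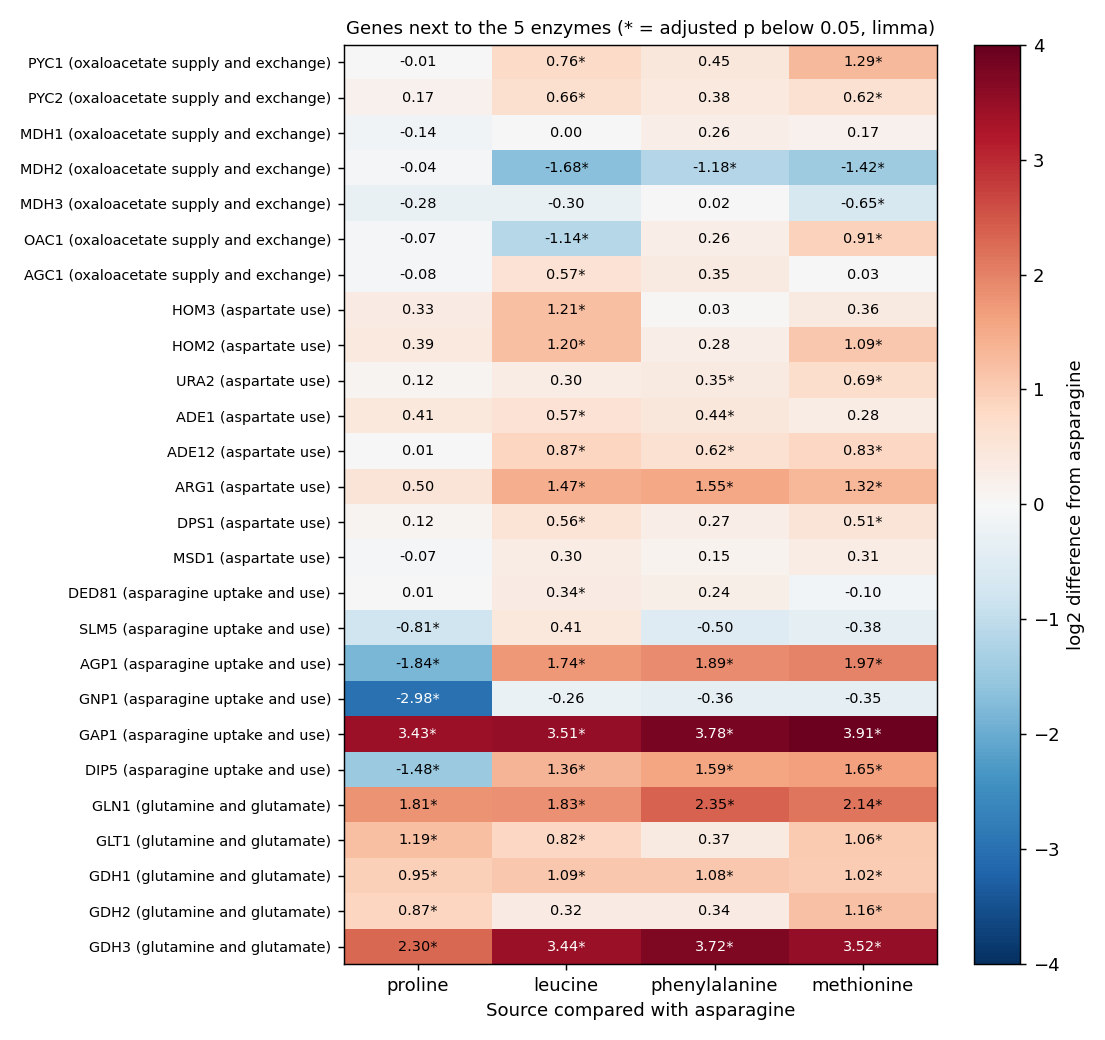
Log2 difference from asparagine of 26 genes in 4 lists next to the 5 enzymes, for each of the other 4 sources, with the value in each cell. An asterisk marks an adjusted p below 0.05 by limma. The GAP1, GLN1 and GDH3 rows are above 0 for all 4 sources, and AGP1 and DIP5 are below 0 with proline alone.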

How the data were processed

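The deposited values are linear intensity signals, 1 for each array and probe set, which the authors made with MAS5 per the submitters' processing notes, with no version or scaling target given in the sources used here. Sources and array numbers are those of the labels. These state triplicates without saying that cultures were separate, and the p-values thus reflect only variation between the arrays of a source, possibly technical. After 60 control probe sets were dropped from 9335, 6504 of the remaining 9275 carried 1 gene name, 328 more than 1 and 2443 no name. RefSeq's gene table (assembly R64) held each of the 6504, with 0 symbols changed. Signals below 2.0, the 10th percentile, were set to it before taking log2. A probe set was tested if at least 3 arrays had it above their own 25th percentile (7459, 80.4%). A mean for each source was fitted with limma 3.58.1 (R 4.3.3, eBayes with trend, 2-sided), with Benjamini-Hochberg adjustment within each comparison over all 7459 and a threshold of 0.05. Each comparison took all 15 arrays. Folds are 2 to the absolute log2 difference. The fits were tested on simulated data. Exact permutation tests enumerated all assignments.

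Named genes were the 5 enzymes, the 2 genes of each neighbouring list with the smallest F test p, the amino acid permeases of the asparagine list and the 3 genes of highest r per enzyme. The enzymes and lists were chosen with earlier results of these data known. Whether shared array numbers pair the arrays was not settled. Deviations from source means correlated at -0.25 to 0.40 (median 0.015) over 30 pairs of the same number, 11 of them above 0.1. Over 60 pairs of different number they correlated at -0.42 to 0.42 (median 0.0015), with 13 above 0.1. The number of arrays limits the precision. Alternatives were other scalings, floors, filters and weights, a replicate block, covariates and each array left out. Filters, weights and covariates were not run for the exact tests. No sequences were used here.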

Additional observations from a re-analysis of the deposited data

How the results depend on the processing

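Of the 28 calls of the 5 enzymes between pairs of sources, 10 held under all 29 alternatives and 14 under the 28 other than the leaving out of the 5 arrays of high ribosomal RNA control signal, an alternative chosen after seeing the data. That alternative gave 12 calls, and the others gave 19 (actin ratio added) to 29, with 22 to 28 when single arrays were left out. Beside the 28 calls of the enzymes, 16029 were made over all probe sets. With the actin ratio added this number fell to 12284. With single arrays left out it was 13020 to 19220, and it also fell without the 5 arrays of high ribosomal RNA control signal. The enzymes passing the F test numbered 4 or 5 of 5 throughout, ASP1 being the one lost. Calls in the neighbouring lists against asparagine numbered 58 and ranged from 53 to 71. With a replicate block, 28 pair calls, 4 F test calls and 57 list calls were made, methionine against proline was gained for AAT2, leucine against asparagine and the F test were lost for ASP1, and the block changed no other call of the enzymes. The exact tests with arrays permuted only within a number are among the alternatives whose range stands beside them. Among the 50 pair tests of the enzymes, signs turned only for differences without a call. ASP1, phenylalanine minus proline, turned from -0.04 to 0.036 with quantile normalization, 0.14 with median centring, 0.10 with array weights, 0.22 with the actin ratio added, 0.11 without phenylalanine 2 (lowest -0.21, without phenylalanine 1) and 0.026 without the high ribosomal RNA arrays. AAT2, phenylalanine minus proline, turned from 0.02 to -0.17 with the hybridisation control as covariate, -0.06 without proline 2, -0.18 without phenylalanine 1 (highest 0.22 with a single array left out) and -0.046 without the high ribosomal RNA arrays. AAT2, phenylalanine minus asparagine, was -0.0012 without phenylalanine 1 and 0.40 without phenylalanine 2, beside 0.20. ASN2, phenylalanine minus asparagine, was -0.012 without asparagine 3 and 0.19 without asparagine 2, beside 0.09. The causes were not tested. Averaging all probe sets of a gene left the enzymes' own values as they were, since each has 1, and adjustment over all pairs together does not apply to the F test.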
